A study of Stylosanthes guianensis with 6 samples.

Results

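MYB and bHLH transcription factors of stylo (Stylosanthes guianensis, a tropical forage legume) are described here in leaves under control Mn and under Mn toxicity. The members are the 37 unigenes, 22 MYB and 15 bHLH, that the study assigned to these families in its list of differentially expressed transcription factors. They belong to 102864 unigenes in all, and the same list holds 86 unigenes of other families. A unigene is the assembled counterpart of a gene, since the reads were assembled de novo, so the members carry assembly numbers and no chromosome position. The list had been made from the same 6 libraries, by a DESeq2 fit of the authors in which q was below 0.05 and the treatments differed at least by 1 on the log2 scale. That contrast therefore chose the members, and their differences between treatments are given below as a description, without a test.

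All plants were seedlings of genotype 'TF303', grown in nutrient solution for 30 d and then kept for 10 d at 5 μM MnSO4 (control) or 400 μM MnSO4 (Mn toxicity). A hydroponic box of several seedlings made up a biological replicate, so each library pools plants, and leaf RNA was sequenced in 3 libraries per treatment. The sample labels write these concentrations in mM, whereas the series design gives μM, which was used.

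MYB proteins bind DNA through repeats of a MYB domain. Those with a pair of repeats (R2R3-MYB) form the largest class in plants and include activators and repressors of phenylpropanoid and flavonoid synthesis, 3R MYBs are known from the control of cell division genes, and MYB-related proteins with a single repeat include clock components. The bHLH proteins bind E-box motifs as dimers. Some bHLH proteins join an R2R3-MYB and a WD40 protein in the complexes that switch on anthocyanin and proanthocyanidin genes, while others act in iron uptake, brassinosteroid responses and stomatal or anther development.

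A member of each family had been chosen for qRT-PCR, the MYB-related protein Zm1 unigene TRINITY_DN45716_c1_g1 and the bHLH89-like unigene TRINITY_DN47446_c4_g2. Their primers are shown because they are the sequences that tie these unigenes to a measurable product, on a transcript of 1091 bp for Zm1 and of 2530 bp for bHLH89-like, as recovered from the RPKM. Each primer is 20 bases long and is written 5′ to 3′ in lower case.
Zm1 forward: ggcggagacaacaattccca
Zm1 reverse: cacacagcccgcaattgaaa
bHLH89-like forward: gggagtgctcgacttcaaca
bHLH89-like reverse: ttggtggggcttgggataag
The G and C content was 55% in 3 of these primers and 50% in the Zm1 reverse primer.

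Values are RPKM, reads per kilobase of unigene and megaread of mapped reads, as deposited, and 3 values in a row stand for replicates 1, 2 and 3. The library totals recovered from the steps of the RPKM were 31.13 to 37.05 M reads (megareads) for the control and 36.17 to 37.76 M reads for Mn toxicity. A set of 40 unigenes, none of them a member, was picked for being both abundant and uneven. Each reached a share of 0.1% somewhere, and its highest share was over 8 times its lowest. Together these 40 held 0.966 to 1.78% of the reads in the control libraries but 23.6, 1.62 and 38.6% in the Mn toxicity libraries. That their shares differed between libraries follows from this choice, and the values only give the size. The 4 unigenes described as photosystem proteins of the chloroplast were above 0 in every library. They summed to 53.8 to 101 RPKM in the control and to 877, 66.5 and 1557 RPKM under Mn toxicity. As these sums differed so much between replicates, they were not read as a measure of green tissue. Because RPKM is relative to all mapped reads of a library, the members were also examined after median-of-ratios scaling, which sets the libraries to the same typical unigene. The values of single members are the deposited ones, and what the scaling changed follows them. The scaling divides the RPKM by 1.11, 1.07 and 1.12 in the control and by 0.977, 1.29 and 0.628 under Mn toxicity.

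Of the 22 MYB members, 15 had a higher mean RPKM under Mn toxicity and 7 a lower mean. Among the 15 bHLH members, 13 were higher and 2 were lower. The members that were higher were weakly expressed in control leaves, with a median control mean of 0.886 RPKM (range 0.0779 to 2.18) in the MYB family and 1.77 RPKM (0.0611 to 4.21) in the bHLH family. Those that were lower started from more, with a median of 3.89 RPKM (1.11 to 34.6) for MYB and of 16.5 RPKM (13.8 to 19.2) for bHLH. A split of the same direction was seen over all unigenes called by limma (below), a narrower grouping than the direction of the mean. Their median control mean was 1.77 RPKM for those called higher and 9.27 RPKM for those called lower. Leaf RNA comes from many cell types, so fewer cells of a type and less RNA per cell cannot be told apart.

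The treatments were compared with limma on log2(RPKM + 0.5) over 30913 unigenes with a mean of at least 0.5 RPKM, and calls needed an adjusted p below 0.05 and a difference of 1 or more on the log2 scale in either direction. All 15 bHLH members and 20 of 22 MYB members reached this minimum. Higher calls were made for 4 MYB and 2 bHLH members, beside 2.09% of all tested unigenes. Lower calls were made for 4 MYB and 1 bHLH member, beside 3.69% of all tested unigenes. The median log2 fold change was 0.61 over the tested MYB members and 0.89 over the bHLH members, against -0.20 over all tested unigenes. Because the list was chosen on this contrast, nothing follows from these shares about the families. The limits of the list lay in another fit, and here 11 MYB and 8 bHLH members differed by 1 or more on the log2 scale. Nearest to that limit were BEE3-like at 1.01 and the bHLH18-like unigene TRINITY_DN44966_c1_g2 at 1.04 inside it, and R2R3 MYB6 at 0.97 and bHLH96 at 0.95 outside it.

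**Figure D1:**
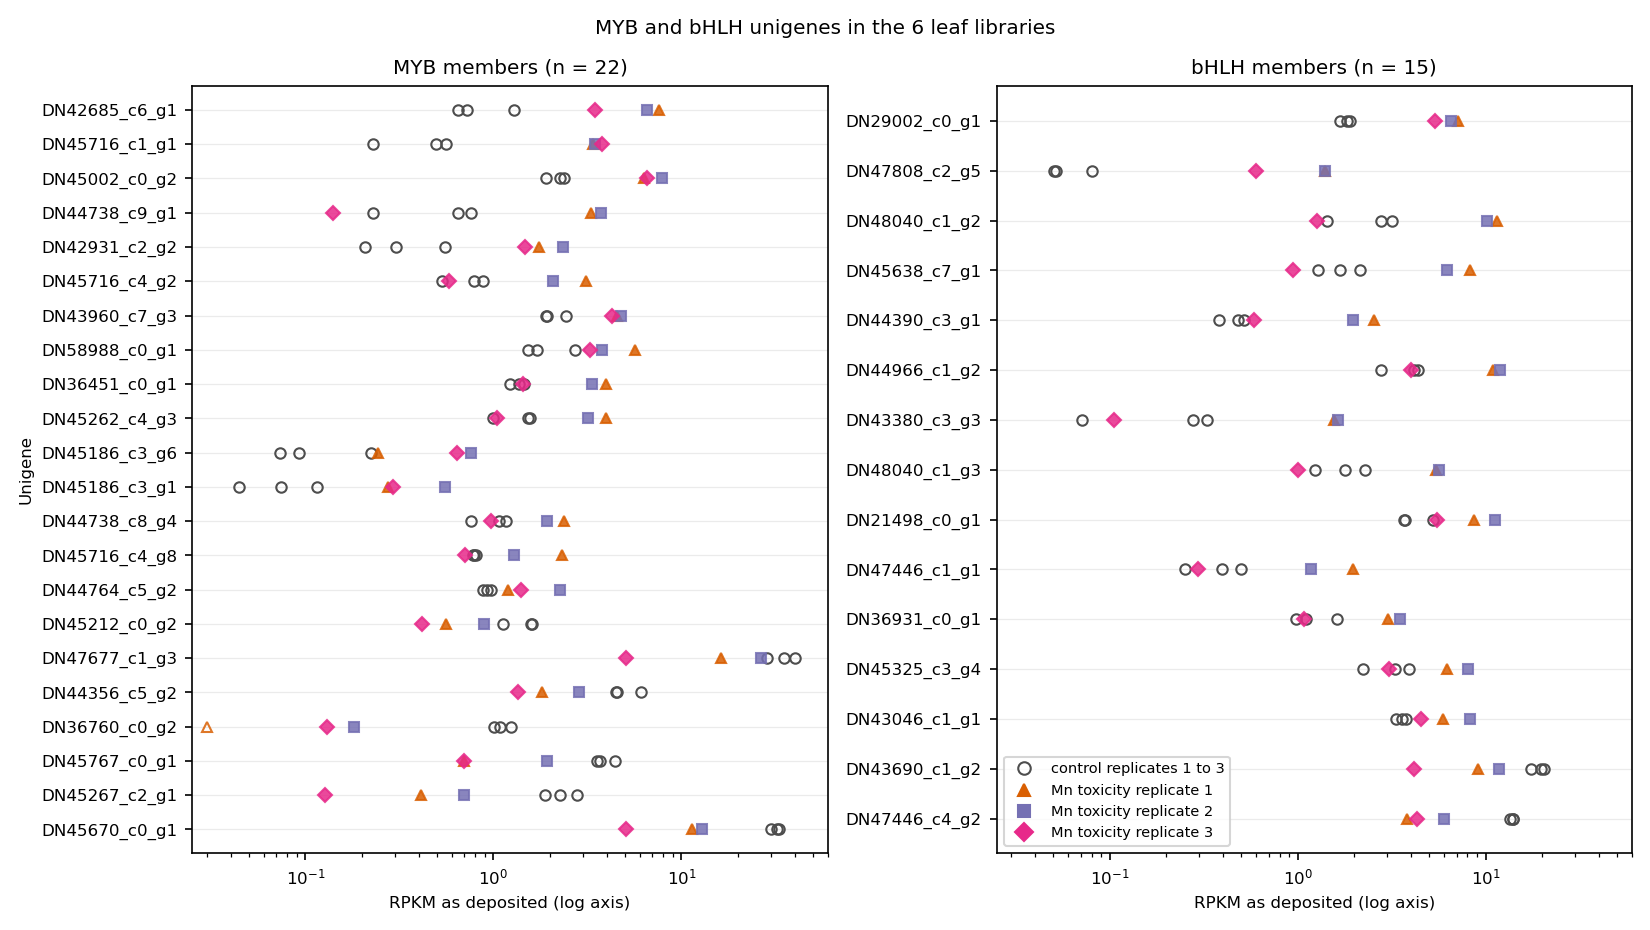
RPKM (log axis) of each of the 22 MYB and 15 bHLH unigenes in the 3 control libraries (open circles) and the 3 Mn toxicity libraries (filled symbols), ordered by the log2 fold change of the means. The open triangle at the left edge is a value of 0. In most members at the top of each panel Mn toxicity replicates 1 and 2 lay above all controls, while replicate 3 often lay among them, and in the 9 members at the bottom all 3 lay below the controls.

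Zm1 (TRINITY_DN45716_c1_g1) had one of the largest differences of the MYB family. It was at 0.228, 0.495 and 0.559 RPKM in the control and at 3.37, 3.47 and 3.79 RPKM under Mn toxicity. The 3 Mn toxicity libraries were nearly equal, and none came near a control library. These values rest on 9, 20 and 19 reads in the control and on 139, 137 and 156 reads under Mn toxicity. The mean was 8.29-fold higher, with a log2 fold change of 2.14 ± 0.29 (SE, n = 3 per treatment), and Zm1 was called.

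R2R3 MYB1 (TRINITY_DN42685_c6_g1), matched to a peanut R2R3 MYB, was at 0.649, 0.726 and 1.28 RPKM in the control and at 7.61, 6.53 and 3.48 RPKM under Mn toxicity. The groups did not overlap, but replicate 3 reached only about the level midway between the others and the controls. Its log2 fold change was 2.17 ± 0.35 (SE), and it was called. That was the highest of the 35 tested members with 0.5 RPKM added, whereas with 0.1 RPKM added R2R3 MYB1 was at 2.58, below Zm1 at 2.85 and the bHLH18-like unigene TRINITY_DN47808_c2_g5 at 2.86. 3R MYB10 (TRINITY_DN45002_c0_g2), of the class known from cell division genes, was at 2.25, 1.90 and 2.38 RPKM in the control and at 6.35, 7.88 and 6.60 RPKM under Mn toxicity. All 3 Mn toxicity libraries lay close together and above the controls, with a log2 fold change of 1.47 ± 0.26 (SE), and it was called too.

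MYB92 (TRINITY_DN42931_c2_g2), named after a soybean MYB factor, was the fourth MYB member called higher. It was at 0.556, 0.304 and 0.206 RPKM in the control and at 1.74, 2.33 and 1.47 RPKM under Mn toxicity, so that every Mn toxicity library exceeded every control library. The mean was 5.20-fold higher, from 25, 14 and 8 reads in the control, and the log2 fold change was 1.46 ± 0.31 (SE). An interaction prediction of the study paired MYB92 with 3 unigenes of flavonoid and isoflavonoid synthesis, which are given here with it.

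The first of these, 2-hydroxyisoflavanone dehydratase (HIDH, TRINITY_DN56723_c0_g1), forms isoflavones such as daidzein in legumes. It was at 0.795, 1.25 and 0.814 RPKM in the control and at 2.04, 2.69 and 3.92 RPKM under Mn toxicity. Its groups did not overlap and replicate 3 was the highest. The log2 fold change of 1.19 ± 0.32 (SE) was not called as deposited, but was called after scaling, at 1.39 ± 0.39 (SE). Anthocyanidin reductase (TRINITY_DN52696_c0_g1), which makes the epicatechin units of proanthocyanidins, was at 2.01, 0.715 and 1.84 RPKM in the control and at 4.39, 7.75 and 0.816 RPKM under Mn toxicity. Here replicate 3 lay among the controls, so the groups overlapped, and the log2 fold change of 0.97 ± 0.60 (SE) was not called. TRINITY_DN45901_c1_g1, a hypothetical protein with a chalcone-flavanone isomerase domain, was at 10.6, 10.8 and 11.2 RPKM in the control and at 14.2, 23.2 and 18.2 RPKM under Mn toxicity. All its Mn toxicity values exceeded the controls, and its log2 fold change of 0.71 ± 0.24 (SE) was not called.

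EGL1-like (TRINITY_DN47338_c1_g4) is the bHLH unigene outside the list whose Arabidopsis relative EGL3 partners R2R3-MYB proteins in anthocyanin control. It was at 0.411, 0.380 and 0.489 RPKM in the control and at 2.02, 0.967 and 0.484 RPKM under Mn toxicity. Replicate 1 was far above the controls, replicate 2 lay above them and replicate 3 lay among them. Its log2 fold change was 0.73 ± 0.38 (SE), and it was not called.

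**Figure D2:**
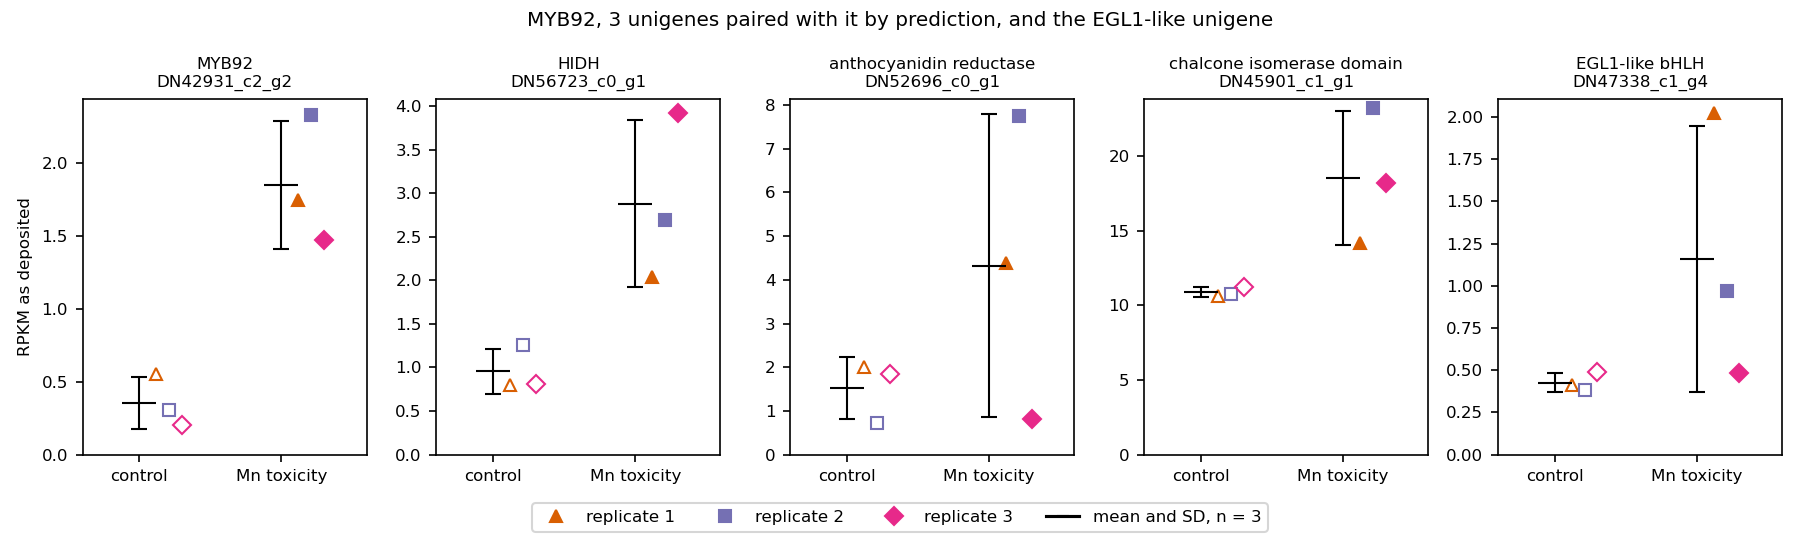
RPKM of MYB92, of the 3 unigenes paired with it by prediction and of the EGL1-like bHLH unigene in each library (symbols by replicate number, open for control, filled for Mn toxicity), with the mean and SD of 3 libraries per treatment as bars. Replicate 3 under Mn toxicity was above the controls for MYB92, HIDH and the chalcone isomerase domain unigene, and among them for anthocyanidin reductase and EGL1-like.

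Besides R2R3 MYB1, 3 members matched numbered R2R3 MYB proteins of peanut. R2R3 MYB6 (TRINITY_DN43960_c7_g3) had a mean of 2.09 ± 0.301 RPKM (SD, n = 3) in the control and of 4.54 ± 0.253 RPKM under Mn toxicity, with the groups apart and replicate 3 close to the others. R2R3 MYB3 (TRINITY_DN58988_c0_g1) had 1.99 ± 0.649 RPKM and 4.25 ± 1.26 RPKM, again with groups that did not overlap. R2R3 MYB5 (TRINITY_DN36451_c0_g1) had 1.35 ± 0.109 RPKM and 2.92 ± 1.33 RPKM, and its replicate 3 at 1.43 RPKM lay just under the highest control. None of these 3 was called, at log2 fold changes of 0.80 to 0.97.

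In the assembly, 3 clusters held more than 1 MYB member, which matters because reads of closely related sequences may be divided among their unigenes. Zm1 shared the cluster DN45716 with Myb4-like (TRINITY_DN45716_c4_g2) and with myb-related protein 330 (TRINITY_DN45716_c4_g8). Myb4-like was at 0.788, 0.532 and 0.879 RPKM in the control and at 3.10, 2.09 and 0.580 RPKM under Mn toxicity. Protein 330 was at 0.784, 0.779 and 0.809 RPKM in the control and at 2.31, 1.29 and 0.710 RPKM under Mn toxicity. For both of them replicate 1 was highest and replicate 3 was down at the control level, in contrast to Zm1, for which replicate 3 was the highest library. AtMYB4, the Arabidopsis namesake of Myb4-like, is known as a repressor of phenylpropanoid genes. Their log2 fold changes were 0.82 ± 0.44 and 0.50 ± 0.35 (SE), and neither was called.

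In the cluster DN44738, Myb4 (TRINITY_DN44738_c9_g1) was at 0.761, 0.228 and 0.645 RPKM in the control and at 3.30, 3.74 and 0.140 RPKM under Mn toxicity. Replicates 1 and 2 were far above the controls, while replicate 3, at 5 reads, was below all of them. Its mean over replicates 1 and 2 was 6.47-fold that of the control, and replicate 3 was at 0.257-fold. MYB35 (TRINITY_DN44738_c8_g4), whose Arabidopsis namesake acts in the tapetum of anthers, was at 1.07, 1.17 and 0.760 RPKM in the control and at 2.39, 1.93 and 0.976 RPKM under Mn toxicity. The nucleotide match of MYB35 was a soybean myb-like protein Q, so the annotations do not settle its name. Replicates 1 and 2 of MYB35 were above all controls too, by less than those of Myb4, and its replicate 3 lay among them. The groups of both unigenes overlapped.

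The cluster DN45186 held the 2 members below the minimum. TRINITY_DN45186_c3_g1, matched to soybean MYB76, was at 0.115, 0.0746 and 0.0444 RPKM in the control and at 0.274, 0.554 and 0.293 RPKM under Mn toxicity. TRINITY_DN45186_c3_g6, a hypothetical protein, was at 0.222, 0.0929 and 0.0737 RPKM in the control and at 0.243, 0.761 and 0.639 RPKM under Mn toxicity. In both, all Mn toxicity values exceeded the controls and replicate 2 was the highest, but the control values rest on 2 to 7 reads per library.

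The other 2 MYB members that were higher were MYB86 (TRINITY_DN45262_c4_g3) and 306-like (TRINITY_DN44764_c5_g2). MYB86 had a mean of 1.36 ± 0.321 RPKM in the control and of 2.72 ± 1.51 RPKM under Mn toxicity, and its replicate 3, at 1.04 RPKM, lay among the controls. For 306-like the means were 0.923 ± 0.0496 and 1.62 ± 0.562 RPKM, with groups that did not overlap. Neither was called.

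All 7 MYB members with a lower mean had groups that did not overlap. MYB-related 13 (TRINITY_DN45670_c0_g1) was the second most abundant member in control leaves, with 29.9, 32.2 and 33.2 RPKM, and had 11.5, 12.9 and 5.10 RPKM under Mn toxicity. Replicate 3 was the lowest library, and the mean was 3.23-fold lower with a log2 fold change of -1.74 ± 0.32 (SE). That was the most negative of the 35 tested members with 0.5 RPKM added, whereas with 0.1 RPKM added it was -1.79, against -2.69 for APL-like and -2.40 for TRINITY_DN45267_c2_g1. TRINITY_DN45267_c2_g1, a hypothetical protein with a MYB domain, was at 1.89, 2.26 and 2.77 RPKM in the control and at 0.412, 0.695 and 0.127 RPKM under Mn toxicity, where replicate 3 held 4 reads. Again replicate 3 was lowest, and the log2 fold change was -1.66 ± 0.34 (SE).

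MYB4 (TRINITY_DN45767_c0_g1), so described after an apple protein, was at 4.42, 3.69 and 3.55 RPKM in the control and at 0.699, 1.93 and 0.700 RPKM under Mn toxicity. Its nucleotide match was a MYB12-like factor, and MYB12 of Arabidopsis is an activator of flavonol synthesis, so the annotations name proteins of different roles. Replicates 1 and 3 were equally low and replicate 2 was higher, with a log2 fold change of -1.53 ± 0.35 (SE). APL-like (TRINITY_DN36760_c0_g2), whose Arabidopsis relative specifies phloem identity, lay at 1.0 to 1.24 RPKM in the control and at 0 to 0.182 RPKM under Mn toxicity. Mn toxicity replicate 1 held no read, which allows up to 3 reads or 0.0654 RPKM for counting error alone, and replicates 2 and 3 held 8 and 6 reads against 44 to 49 in the controls. These 4 members were the MYB unigenes called lower.

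MYB114 (TRINITY_DN47677_c1_g3), of only 354 bp, was the most abundant member in control leaves, at 35.3, 28.4 and 40.3 RPKM, and had 16.2, 26.6 and 5.09 RPKM under Mn toxicity. Replicate 2 lay just under the lowest control, whereas replicate 3 was at 0.147-fold of the control mean. Its nucleotide match was soybean LHY, a MYB-related component of the circadian clock, so its numbered name does not settle its class. The log2 fold change of -1.35 ± 0.48 (SE) was not called. TRINITY_DN44356_c5_g2, a hypothetical protein, had means of 5.04 ± 0.888 and 2.01 ± 0.775 RPKM, and MYB94 (TRINITY_DN45212_c0_g2) had 1.44 ± 0.272 and 0.624 ± 0.245 RPKM. Neither was called, and in both replicate 3 was the lowest library.

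In the bHLH family, 4 members were described as bHLH18-like. In Arabidopsis, bHLH18 and its close relatives promote the breakdown of FIT, the bHLH regulator of iron uptake. The weakest of them, TRINITY_DN47808_c2_g5, was at 0.0521, 0.0508 and 0.0806 RPKM in the control and at 1.39, 1.40 and 0.598 RPKM under Mn toxicity. Every Mn toxicity library was far above the controls, with replicate 3 at less than the level of the others. In reads these were 10 over the 3 controls and 201 over the 3 Mn toxicity libraries, a ratio of 18.8 after correction for the library totals, with an exact 95% interval of 10.0 to 39.8 that covers counting error only. No other member had a larger ratio, and the log2 fold change of 1.50 ± 0.33 (SE), lowered by the added 0.5 RPKM, was called.

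The other 3 bHLH18-like unigenes were expressed in control leaves. TRINITY_DN44966_c1_g2 was at 4.14, 2.78 and 4.35 RPKM in the control and at 10.9, 11.9 and 4.01 RPKM under Mn toxicity. TRINITY_DN21498_c0_g1 was at 5.22, 3.71 and 3.70 RPKM in the control and at 8.63, 11.2 and 5.52 RPKM under Mn toxicity. TRINITY_DN45325_c3_g4 was at 3.31, 3.90 and 2.21 RPKM in the control and at 6.25, 8.03 and 3.06 RPKM under Mn toxicity. In all 3, replicate 2 was the highest library and replicate 3 the lowest of the Mn toxicity libraries. For TRINITY_DN21498_c0_g1 replicate 3 was still above the controls, while for the other 2 it lay among them. Their log2 fold changes were 1.04 ± 0.39, 0.89 ± 0.31 and 0.72 ± 0.37 (SE), and none was called.

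The second bHLH member called higher was TRINITY_DN29002_c0_g1, matched to a partial soybean bHLH factor. It was at 1.82, 1.68 and 1.89 RPKM in the control and at 7.15, 6.52 and 5.35 RPKM under Mn toxicity. Replicate 3 was lower than the others but well clear of the controls, and the log2 fold change of 1.57 ± 0.26 (SE) was called. HLH (TRINITY_DN43046_c1_g1), matched to a Medicago protein, was at 3.32, 3.76 and 3.58 RPKM in the control and at 5.96, 8.23 and 4.51 RPKM under Mn toxicity. The groups did not overlap, and its log2 fold change of 0.70 ± 0.28 (SE) was not called.

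Both unigenes of the cluster DN48040 were described as bHLH93, which in Arabidopsis belongs to the same subgroup as the cold and stomatal regulator ICE1. TRINITY_DN48040_c1_g2 was at 2.76, 1.42 and 3.19 RPKM in the control and at 11.5, 10.1 and 1.27 RPKM under Mn toxicity. TRINITY_DN48040_c1_g3 was at 2.29, 1.24 and 1.78 RPKM in the control and at 5.45, 5.62 and 1.01 RPKM under Mn toxicity. For both, replicates 1 and 2 were above all controls and replicate 3 was below all of them. The lowest control of both was replicate 2. Their log2 fold changes were 1.09 ± 0.64 and 0.77 ± 0.51 (SE), and neither was called.

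BEE3-like (TRINITY_DN45638_c7_g1), whose Arabidopsis relative is an early response gene of brassinosteroids, likewise had replicates 1 and 2 above and replicate 3 below all controls. Its controls lay between 1.29 and 2.15 RPKM, with replicates 1 and 2 under Mn toxicity at 8.27 and 6.21 RPKM and replicate 3 at 0.943 RPKM. For bHLH96 (TRINITY_DN43380_c3_g3) the controls lay between 0.0714 and 0.329 RPKM, with 1.56, 1.64 and 0.105 RPKM under Mn toxicity. The bHLH106-like unigene TRINITY_DN36931_c0_g1 had means of 1.23 ± 0.332 and 2.54 ± 1.28 RPKM, with replicate 3 at 1.08 RPKM among the controls. In bHLH30 (TRINITY_DN44390_c3_g1) replicate 3, at 0.582 RPKM, was just above the highest control of 0.521 RPKM, while replicates 1 and 2 had 2.55 and 1.97 RPKM. None of these 4 was called.

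The cluster DN47446 held members of opposite direction. Its bHLH96-like unigene, TRINITY_DN47446_c1_g1, was at 0.497, 0.251 and 0.398 RPKM in the control and at 1.97, 1.18 and 0.295 RPKM under Mn toxicity. Replicates 1 and 2 were above all controls and replicate 3 was among them (log2 fold change 0.77 ± 0.42, SE, not called). In bHLH89-like (TRINITY_DN47446_c4_g2), whose Arabidopsis namesake acts in anthers, the values were 14.0, 13.9 and 13.4 RPKM in the control and 3.82, 6.01 and 4.30 RPKM under Mn toxicity. The controls were nearly equal and all 3 Mn toxicity libraries were well below them. Its mean was 2.93-fold lower, the log2 fold change was -1.48 ± 0.25 (SE), and it was the bHLH member called lower.

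BIM2-like (TRINITY_DN43690_c1_g2), named after partners of the brassinosteroid factor BES1 in Arabidopsis, was the most abundant bHLH member in control leaves. It was at 20.4, 17.4 and 19.8 RPKM in the control and at 9.06, 11.8 and 4.13 RPKM under Mn toxicity. The groups did not overlap and replicate 3 was again the lowest library. The log2 fold change of -1.27 ± 0.34 (SE) was not called.

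In both families Mn toxicity replicate 3 often stood apart. Of the members that were higher, Mn toxicity replicates 1 and 2 exceeded all controls for 15 of 15 MYB and 13 of 13 bHLH unigenes. Over all 30913 tested unigenes, in either direction, this held for 9310. The choice of members on this contrast, and here by a higher mean, favours such an order. Replicate 3 exceeded all controls for 9 of the 15 MYB and for 5 of the 13 bHLH unigenes, and was below all controls for 2 MYB and 3 bHLH unigenes. The median ratio to the control mean was 2.92, 2.85 and 1.65 in Mn toxicity replicates 1, 2 and 3 for the higher MYB members, and 3.97, 3.18 and 0.975 for the higher bHLH members. Among the Mn toxicity libraries replicate 3 was the lowest for 10 of the 15 MYB and for 13 of the 13 bHLH unigenes. Such an order was common, since replicate 3 was the lowest Mn toxicity library for 82.4% of all tested unigenes, and was not above all controls for 68.7% of the 9310 unigenes with replicates 1 and 2 above them. Among unigenes for which the mean of replicates 1 and 2 was also at least 2 times the control mean, replicate 3 was not above all controls for 47.9% of 2880 in all, and for 6 of 14 MYB and 8 of 12 bHLH members. Whether the families differed in this was not tested.

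Of the 20 tested MYB and 15 tested bHLH members, 7 MYB and 5 bHLH were higher without overlap of the groups, beside 9.41% of all tested unigenes. After scaling these were 12 MYB and 9 bHLH, beside 22.7%. Lower without overlap were 7 of the 20 MYB and 2 of the 15 bHLH members, beside 22.6% of all tested unigenes. These were all the members with a lower mean. After scaling the numbers were the same, beside 23.5%. As the list was chosen on this contrast, nothing follows from these shares about the families. The spread was wider under Mn toxicity, with a median coefficient of variation of 42.1% for MYB and 48.0% for bHLH members against 19.1 and 25.3% in the control. It was larger under Mn toxicity for 15 of 22 MYB and 15 of 15 bHLH members. Over all tested unigenes the medians were 37.9% under Mn toxicity and 9.51% in the control.

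The controls were not equal either. Control replicate 2 was the lowest control library for 10 of the 13 higher bHLH members and for 7 of the 15 higher MYB members, beside 46.3% of all tested unigenes. After scaling these counts were 9 and 6, beside 34.1% of all tested unigenes.

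Scaling moved replicate 3 under Mn toxicity upward. After median-of-ratios scaling the median ratio to the control mean was 3.29, 2.44 and 2.90 in Mn toxicity replicates 1, 2 and 3 for the higher MYB members, and 4.48, 2.72 and 1.70 for the higher bHLH members. Replicate 3 was then below all controls for 0 of these MYB and 0 of these bHLH unigenes. It exceeded all controls for 14 of 15 MYB and 9 of 13 bHLH unigenes. The exceptions were Myb4 among the MYB members, and bHLH96, both bHLH93 unigenes and BEE3-like among the bHLH members. Over all unigenes, replicate 3 was not above the controls for 27.2% of the 9647 with replicates 1 and 2 above them. With the limit of 2 times, it was 27.4% of 2709 in all, 1 of 14 MYB and 4 of 12 bHLH members. Replicate 3 was the lowest Mn toxicity library for 38.3% of all tested unigenes, for 4 of the 15 higher MYB and for 10 of the 13 higher bHLH members. In R2R3 MYB5, scaling put replicate 3 above all controls, at 2.28 against at most 1.30 scaled RPKM. In the bHLH unigene TRINITY_DN29002_c0_g1 it made replicate 3 the highest library, at 8.52 scaled RPKM.

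**Figure D3:**
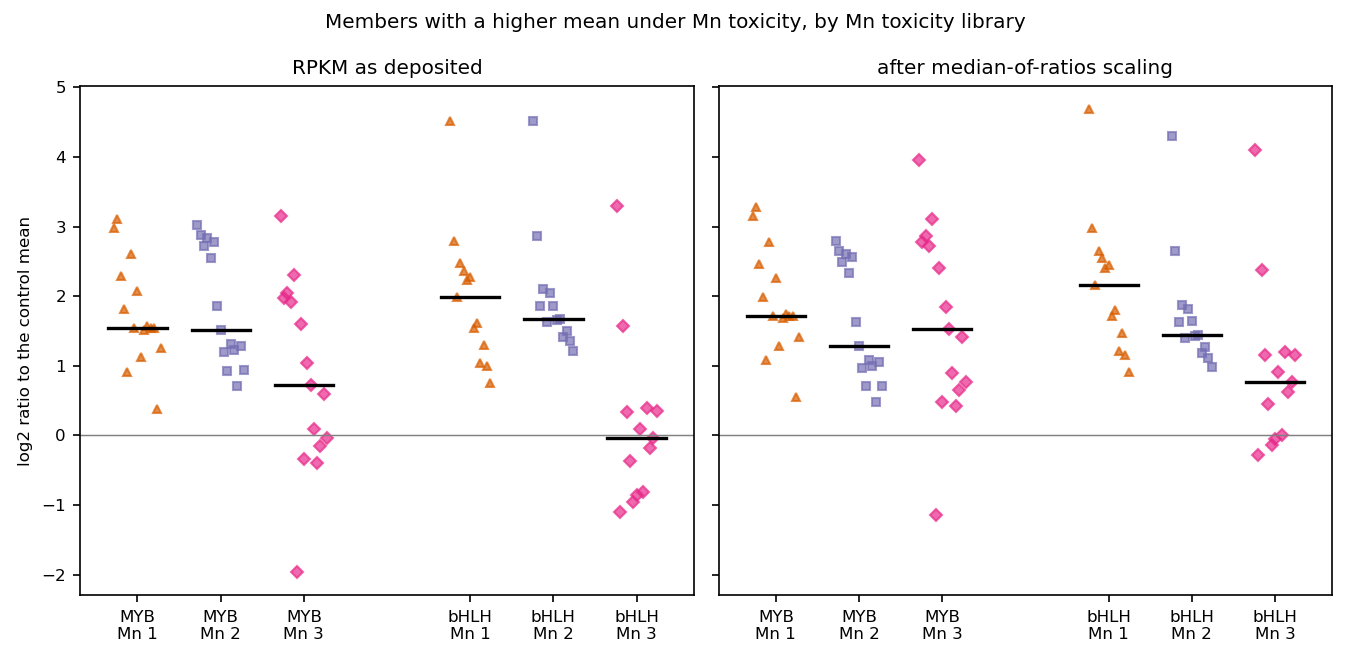
Log2 ratio of each Mn toxicity library to the control mean for the 15 MYB and 13 bHLH members with a higher mean under Mn toxicity, from the RPKM as deposited (left) and after median-of-ratios scaling (right). Each symbol is a unigene and each black line the median of a family in a library. The median of replicate 3 was the lowest as deposited, and after scaling it was still the lowest for bHLH but not for MYB.

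With scaled values, 6 MYB and 5 bHLH members were called higher, beside 4.37% of all tested unigenes. Those added were R2R3 MYB6 and R2R3 MYB3, and bHLH30 with the bHLH18-like unigenes TRINITY_DN44966_c1_g2 and TRINITY_DN21498_c0_g1. Lower calls were made for 5 MYB and 2 bHLH members, beside 3.77% of all tested unigenes, with MYB114 and BIM2-like as the additions. No member changed direction. The median log2 fold change was 0.78 for MYB and 0.96 for bHLH, against -0.0006 over all tested unigenes, whose median the scaling also moved upward.

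Leaving out Mn toxicity replicate 3 raised the number of members called higher to 10 MYB and 12 bHLH, beside 5.65% of all tested unigenes. The members called lower without it were 4 MYB and 1 bHLH, beside 3.56%. Without control replicate 1, 2 or 3, limma called 1 MYB and 0 bHLH members in either direction, beside 1.26, 1.2 and 0.935% of all tested unigenes. Without Mn toxicity replicate 1 the calls were 2 MYB and 0 bHLH members, beside 1.37%. In these 4 limma fits, 11 to 12 MYB and 4 to 7 bHLH members had an unadjusted p below 0.05. Over all 30913 tested unigenes these were 4659 to 4995. Without Mn toxicity replicate 2, 10 MYB and 4 bHLH members were called, beside 16.1%. In the scaled values without Mn toxicity replicate 3, 9 MYB and 12 bHLH members were called higher, beside 5.22%.

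**Figure D4:**
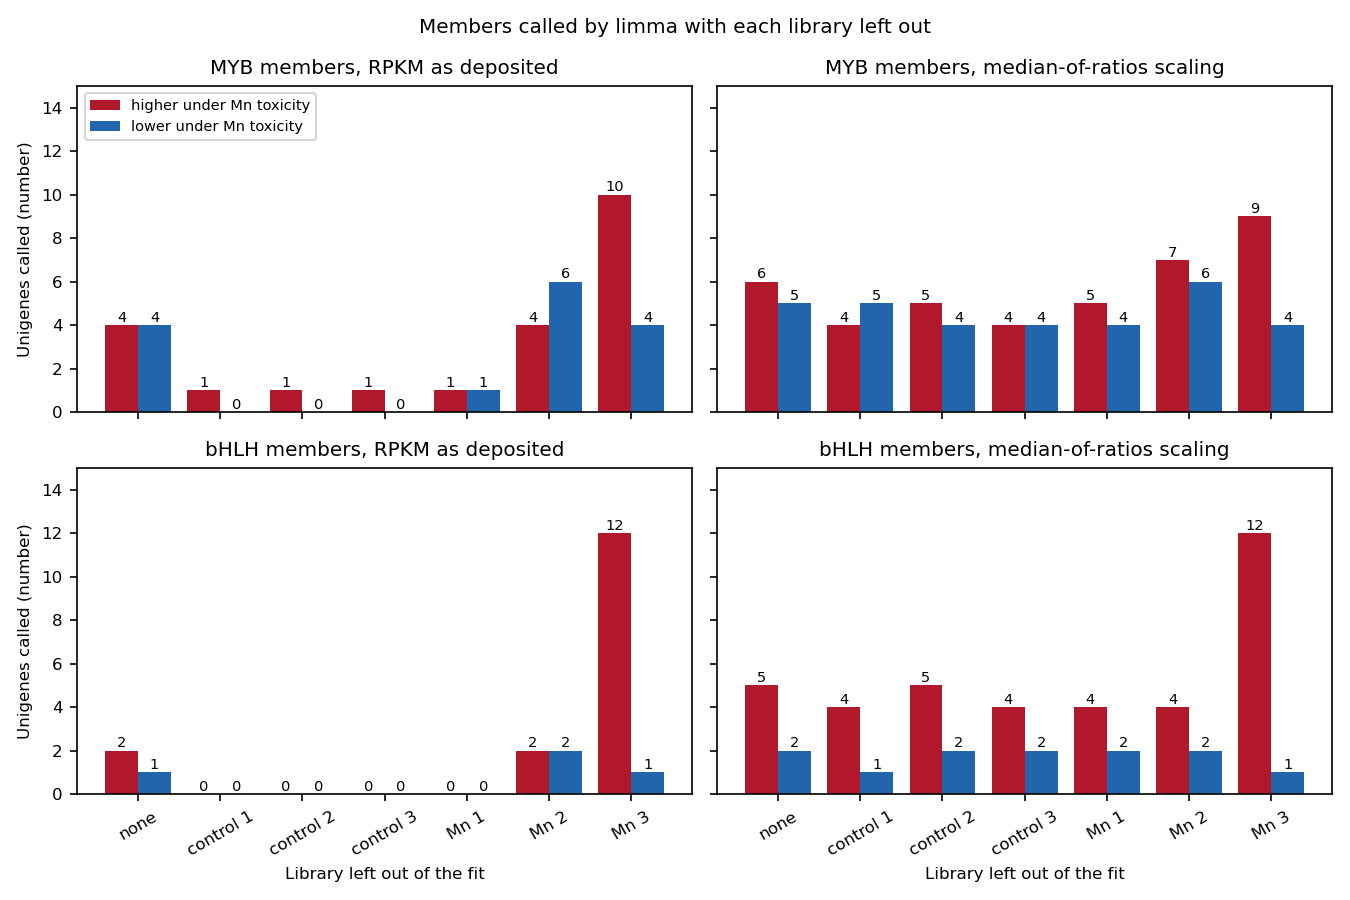
Number of MYB (top) and bHLH (bottom) members called higher or lower by limma in the fit of all 6 libraries (none) and with each library left out, for the RPKM as deposited (left) and after median-of-ratios scaling (right). In the deposited values, calls were few without a control library or Mn toxicity replicate 1, and the number called higher rose to 10 MYB and 12 bHLH without Mn toxicity replicate 3.

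The family list leaves out 8 related unigenes with a MYB, Myb/SANT-like or EGL1 description, likewise chosen on this contrast, of which 4 had a higher and 4 a lower mean and 6 reached the minimum. Lower calls were made by limma for 3 of these and higher calls for 0, beside 3.69% and 2.09% of all tested unigenes. In the same fit 1 higher unigene had an unadjusted p below 0.05, beside 7529 of all 30913 tested unigenes in either direction. With voom on the recovered reads these numbers were 4, 0 and 1, beside 2.97% called lower, 1.72% called higher and 7385 at an unadjusted p below 0.05. MYB-related 17 (TRINITY_DN43877_c3_g1) was at 19.9, 17.7 and 17.3 RPKM in the control and at 8.13, 9.60 and 4.96 RPKM under Mn toxicity. MYB-related 18 (TRINITY_DN43053_c5_g5) was at 17.2, 18.3 and 16.7 RPKM in the control and at 4.88, 6.33 and 4.77 RPKM under Mn toxicity. Both carry a zinc knuckle domain in the annotation, and in both all Mn toxicity libraries were far below the controls. The third, TRINITY_DN42043_c3_g3, matched to the trihelix factor GT-2, was at 63.4, 54.0 and 64.2 RPKM in the control and at 22.3, 38.6 and 16.5 RPKM under Mn toxicity. MYB-related 19 (TRINITY_DN43176_c1_g3) had means of 4.78 ± 0.104 and 1.90 ± 0.954 RPKM and was called only after scaling. Besides EGL1-like, the higher ones were 3 unigenes with a Myb/SANT-like domain whose groups did not overlap. TRINITY_DN43088_c5_g5 had means of 1.21 ± 0.125 and 2.30 ± 0.180 RPKM and was not called, while TRINITY_DN36002_c0_g1 (0.146 ± 0.0884 and 0.553 ± 0.199 RPKM) and TRINITY_DN42276_c4_g11 (0.210 ± 0.0365 and 0.525 ± 0.111 RPKM) were below the minimum. MYB-related 13, 17, 18 and 19, which share a peanut naming series, were all lower than the controls in all 3 Mn toxicity libraries.

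The structural genes of flavonoid metabolism are known targets of R2R3-MYB and bHLH factors in plants. The study's flavonoid list is wider than these genes. It also holds transcription factors with a NAM domain, a WD-repeat protein, cinnamyl alcohol dehydrogenases and an aminocyclopropane-carboxylate oxidase. The counts and the median below are therefore those of the whole list. Of the 20 unigenes in the study's flavonoid list with HIDH added, also chosen on this contrast, 16 had a higher and 4 a lower mean, and of the 19 tested, 4 were called higher and 3 lower, beside 2.09% and 3.69% of all tested unigenes. After scaling 9 were called higher and 3 lower, beside 4.37% and 3.77%. Their median log2 fold change was 0.81. Called higher were a feruloyl-CoA hydroxylase-like unigene of coumarin synthesis, a phenolic glucoside malonyltransferase-like, a chalcone synthase and a vestitone reductase-like unigene of isoflavonoid synthesis. Called lower were 2 chalcone synthases and a flavonoid 3′,5′-hydroxylase-like unigene. The last, of 586 bp, carries an outer membrane lipoprotein domain in the annotation, so its name is not settled. The chalcone synthase TRINITY_DN42629_c5_g4 was not called after scaling, at -0.98. Of the 15 tested unigenes with a higher mean, replicate 3 under Mn toxicity exceeded all controls for all but 2, anthocyanidin reductase and TRINITY_DN45668_c1_g2, an oxygenase-domain protein. The chalcone synthase unigenes, which stand at the entry of the pathway, were split. TRINITY_DN46875_c3_g5 was at 0.899, 1.58 and 1.25 RPKM in the control and at 2.67, 5.21 and 3.44 RPKM under Mn toxicity, and was called higher. TRINITY_DN44420_c1_g1 was at 15.3, 15.1 and 14.8 RPKM in the control and at 4.14, 4.48 and 3.69 RPKM under Mn toxicity, and was called lower. The groups of TRINITY_DN44420_c1_g1 were well apart. Those of TRINITY_DN46875_c3_g5, of 308 bp, did not overlap but rest on few reads. These were 10, 18 and 12 reads in the control and 31, 58 and 40 reads under Mn toxicity.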

How the data were processed

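The deposited tables, 1 per library, give RPKM values. According to the methods of the study, the authors assembled the reads with Trinity, mapped them with Bowtie2 2.2.3 and estimated RPKM with RSEM, with no scaling between libraries stated. No RSEM version was given. Each library came from a separate hydroponic box. Groups and replicates follow the sample titles.

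Family, description and primers were taken from the study's supplementary lists, whose fold changes and p-values were not used. Members and lists were chosen with earlier results of these data known. All members are named. Values in every library are given for members that the study named, the 3 highest and 3 lowest log2 fold changes per family, shared clusters, bHLH18-like members and means of at least 5 RPKM. The chalcone synthases and some further values were chosen after they had been seen.

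The contrast of Mn toxicity and control was fitted by limma (version 3.58.1, R 4.3.3) to log2(RPKM + 0.5), with an intensity trend, no block and a two-sided test with Benjamini-Hochberg adjustment. The pseudocount lowers fold changes of weakly expressed unigenes. Reads and lengths were recovered from the RPKM steps, within 0.01 read, as the smallest whole numbers that fit (Python 3.11.15, pandas 2.3.3, numpy 2.4.6). Both steps were tested on simulated data. The alternatives were other pseudocounts, minimum values, scalings and variance models, a replicate block and the omission of each library. Scaling combined with omission was added after seeing the data. Enrichment and qRT-PCR were not analysed here.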

Additional observations from a re-analysis of the deposited data

How the results depend on the processing

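Under the 22 alternatives, 766 log2 fold changes of the 35 tested members were computed, of which 698 moved by less than 1 SD of the replicates, 68 moved by more and 0 changed direction. With the pseudocount, the minimum value or the variance model changed, the numbers of MYB and bHLH members called stayed within 1.5 times. They were 7 to 8 MYB and 2 to 3 bHLH, beside 2.47 to 6% of all tested unigenes. The members called were not always the same. With 1 RPKM added, 7 of the 8 MYB and 2 of the 3 bHLH calls were kept. The bHLH18-like unigene TRINITY_DN47808_c2_g5 at 0.98 and APL-like at -0.94 then fell short of the limit of 1 in size. Quantile normalization called 7 bHLH members and 12 flavonoid unigenes, beside 8.3% of all tested unigenes, and median-of-ratios scaling called the same numbers, beside 8.14%. Setting the libraries to the same sum of RPKM left 1 bHLH member and 3 flavonoid unigenes, beside 3.81%. The flavonoid count was 3 with no minimum mean RPKM, beside 2.47%, and 4 with voom on recovered reads, beside 4.69%. Over all unigenes the calls split into 646 higher and 1141 lower as deposited and into 1350 and 1165 after scaling.

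With 1 library left out, the counts of called unigenes ranged from 1 to 14 for MYB, 0 to 13 for bHLH, 0 to 5 for the other MYB and bHLH unigenes and 1 to 10 for the flavonoid unigenes. The share of all tested unigenes called in these fits also ranged widely, from 0.935 to 16.1%. After scaling the counts ranged from 8 to 13 for MYB, 5 to 13 for bHLH (6 in 3 of the 6 fits), 2 to 4 for the other MYB and bHLH unigenes and 7 to 17 for the flavonoid unigenes. Beside these, 5.45 to 11.3% of all tested unigenes were called. The median log2 fold change ranged from 0.41 to 0.92 for MYB and from 0.63 to 1.44 for bHLH, and after scaling from 0.57 to 0.88 and from 0.80 to 1.39. The pair of libraries left in a treatment was assumed to vary like the other libraries.

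The replicate number did not pair the libraries, since the correlations of the deviations were 0.08, -0.15 and -0.08 for replicates 1, 2 and 3, and the block was therefore only an alternative. With the replicate block, 10 MYB, 4 bHLH, 4 other MYB and bHLH and 8 flavonoid unigenes were called, beside 8.71% of all tested unigenes, and the medians stayed at 0.61 and 0.89. Not every library correlated best with its own number. At these depths 20 of the 222 member values rest on fewer than 10 reads, 15 of them of MYB members.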
